A study of Rattus norvegicus with 64 samples.

Results

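The genes followed here are 10 markers of macrophage identity and polarization: Cd68, Adgre1, Csf1r, Msr1, Trem2, Gpnmb, Cd163, Mrc1, Arg1 and Nos2. They were picked by symbol, through the RefSeq transcript that the array design gives for each probe, and all 10 were found, on 11 of the 18750 named probes and among 15709 named genes. Csf1r had 2 probes and each other gene 1. RNA came from the reconstructed bladder wall of male Wistar rats that had all undergone hemicystectomy and augmentation with bladder acellular matrix (BAM). In 4 groups the BAM carried no cells, and in 4 it was seeded with adipose tissue-derived stromal cells (ASCs, called ADSCs in the sample labels) grown from retroperitoneal fat of male Wistar rats that were 10 weeks old. The sample labels do not say whether these were the grafted rats themselves, and the study calls the cells autologous. The age of the operated rats is not given in the sources used here. Walls were taken 7, 30, 90 and 180 days after surgery, with 8 rats and 8 one-colour arrays in each of the 8 groups (64 arrays). No group holds an unoperated bladder or a reconstruction without BAM, so every comparison is between 2 BAM grafts.

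Macrophages enter a wound as monocytes and remove neutrophils, debris and implanted matrix. By a usage that comes from cell culture, those driven by interferon-gamma and microbial products are called M1 and make nitric oxide through Nos2, while those driven by IL-4 and IL-13 are called M2 and in rodents express Arg1 and the mannose receptor Mrc1. Nos2 and Arg1 use the same substrate, arginine, and neutrophils and other cells can express either gene, so neither marks macrophages alone. On an implanted matrix macrophages also fuse into giant cells and take on a lipid-handling, lysosome-rich state in which Trem2 and Gpnmb are found. A bulk wall sample cannot tell fewer macrophages from less RNA of the gene in each.

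Levels below are on a log2 scale relative to the 75th percentile of each array's gene spots, which is set to 0. They are compared between groups for 1 probe and never between probes. A gene was called changed where the Benjamini-Hochberg adjusted p over all 30367 gene probes was below 0.01 and the fold change above 1.5, in 1 limma fit to the 64 arrays. Each group lay on a slide of its own, and days 7 and 30 were scanned on another day than days 90 and 180, so slide and group cannot be told apart and the step from day 30 to day 90 also crosses the scan days. Between 73.3% and 95.6% of gene spots stood well above background on the arrays of days 7 and 30, against 35.5% to 64.6% on those of days 90 and 180. Nos2 was not well above background on any array of days 90 and 180, and its late values carry only a bound. Gpnmb was saturated on 27 of the 64 arrays. Arrays that stood apart in several genes were replicate 2 of the unseeded graft at day 7, replicate 5 of the unseeded graft at day 90 and replicate 3 of the seeded graft at day 90.

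RefSeq promoters (assembly GRCr8) were at hand for 7 of the 10 genes and not for Nos2, Arg1 and Msr1. The 250 bases before the transcript start are shown for Cd68, Trem2 and Gpnmb, whose signals moved together from array to array, and for Mrc1 and Cd163, which were called changed in none of the comparisons. Capitals mark matches, on either strand, to the PU.1 core GAGGAA, the AP-1 site TGAGTCA or the NF-kappaB type site (GGGA, any 4 bases, CC).
Cd68, chr10:54882442-54882691, minus strand: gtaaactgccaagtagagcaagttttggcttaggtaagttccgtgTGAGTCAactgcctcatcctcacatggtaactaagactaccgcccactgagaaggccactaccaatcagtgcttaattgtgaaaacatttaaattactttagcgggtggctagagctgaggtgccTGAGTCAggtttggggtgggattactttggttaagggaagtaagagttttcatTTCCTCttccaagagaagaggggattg
Trem2, chr9:20151780-20152029, minus strand: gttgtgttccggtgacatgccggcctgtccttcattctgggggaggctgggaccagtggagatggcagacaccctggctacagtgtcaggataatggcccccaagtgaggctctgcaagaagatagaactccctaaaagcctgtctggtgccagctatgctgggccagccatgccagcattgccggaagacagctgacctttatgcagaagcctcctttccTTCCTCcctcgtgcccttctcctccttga
Gpnmb, chr4:79340878-79341127, plus strand: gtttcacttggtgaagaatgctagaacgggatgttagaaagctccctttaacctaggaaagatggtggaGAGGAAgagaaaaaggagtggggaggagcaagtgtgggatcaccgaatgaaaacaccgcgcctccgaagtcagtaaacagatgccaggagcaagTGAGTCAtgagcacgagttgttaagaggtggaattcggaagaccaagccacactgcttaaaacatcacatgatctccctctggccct
Mrc1, chr17:82157475-82157724, plus strand: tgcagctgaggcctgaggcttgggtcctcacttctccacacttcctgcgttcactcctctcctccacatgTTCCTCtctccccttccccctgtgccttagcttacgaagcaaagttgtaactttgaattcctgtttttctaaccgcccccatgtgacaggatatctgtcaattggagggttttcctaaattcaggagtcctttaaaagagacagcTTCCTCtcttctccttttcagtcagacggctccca
Cd163, chr4:158770524-158770773, plus strand: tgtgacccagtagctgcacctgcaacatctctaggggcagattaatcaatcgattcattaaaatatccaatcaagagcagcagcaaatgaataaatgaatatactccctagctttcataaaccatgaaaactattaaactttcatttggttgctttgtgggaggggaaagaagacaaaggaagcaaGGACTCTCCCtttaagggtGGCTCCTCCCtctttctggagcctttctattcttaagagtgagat
The PU.1 core, the sequence bound by the master regulator of myeloid cells, was found in 6 of the 7 member promoters and in 23.3% of all 33469 promoters of the same length. Cd68 and Trem2 hold it close before the start, at bases 27 to 22 and 29 to 24 before it, and Mrc1 at bases 35 to 30 and 180 to 175. Cd163 was the promoter without it in this window and held 2 matches to the NF-kappaB type site, a motif in 16.4% of all promoters. TGAGTCA stood in the promoters of Cd68 and Gpnmb (4.05% of all). The C/EBP type site TTGCNNAA (9.22% of all) was found in Adgre1, and neither the STAT dimer site TTCNNNGAA (7.67% of all) nor TATAAA (12.9% of all) was found in any of the 7. No marked match overlaps a match to another motif, and a match of letters shows no binding.

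The pattern shared by most of the genes was a fall between day 30 and day 90. In the unseeded graft 6 of the 10 genes were called lower and none higher, where 9.49% of all probes were called lower and 35.2% higher. In the seeded graft 5 of the 10 were called lower and none higher, against 10.3% of all probes lower and 17.8% higher. The median log2 fold change of the 10 genes was -1.32 without ASCs and -1.19 with them, while the median of all probes was 0.30 and 0.11. Probes at background were among those called higher, such as Il4 without ASCs (2.82, 0 of 8 arrays well above background on both days). Median local background was 321 to 365.5 on unseeded arrays of day 90 and 49 to 51 on those of day 30. It was 99 to 120 on seeded arrays of day 90. The 75th percentile (log2) was 9.91 to 11.6 on unseeded arrays of day 90 and 9.98 to 10.7 on those of day 30. The 10 housekeeping genes had a median of -0.67 in the unseeded graft, with 6 called lower, and of -0.25 in the seeded graft, with 3 called lower. Their part in the fall of the macrophage genes was not tested.

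**Figure D1:**
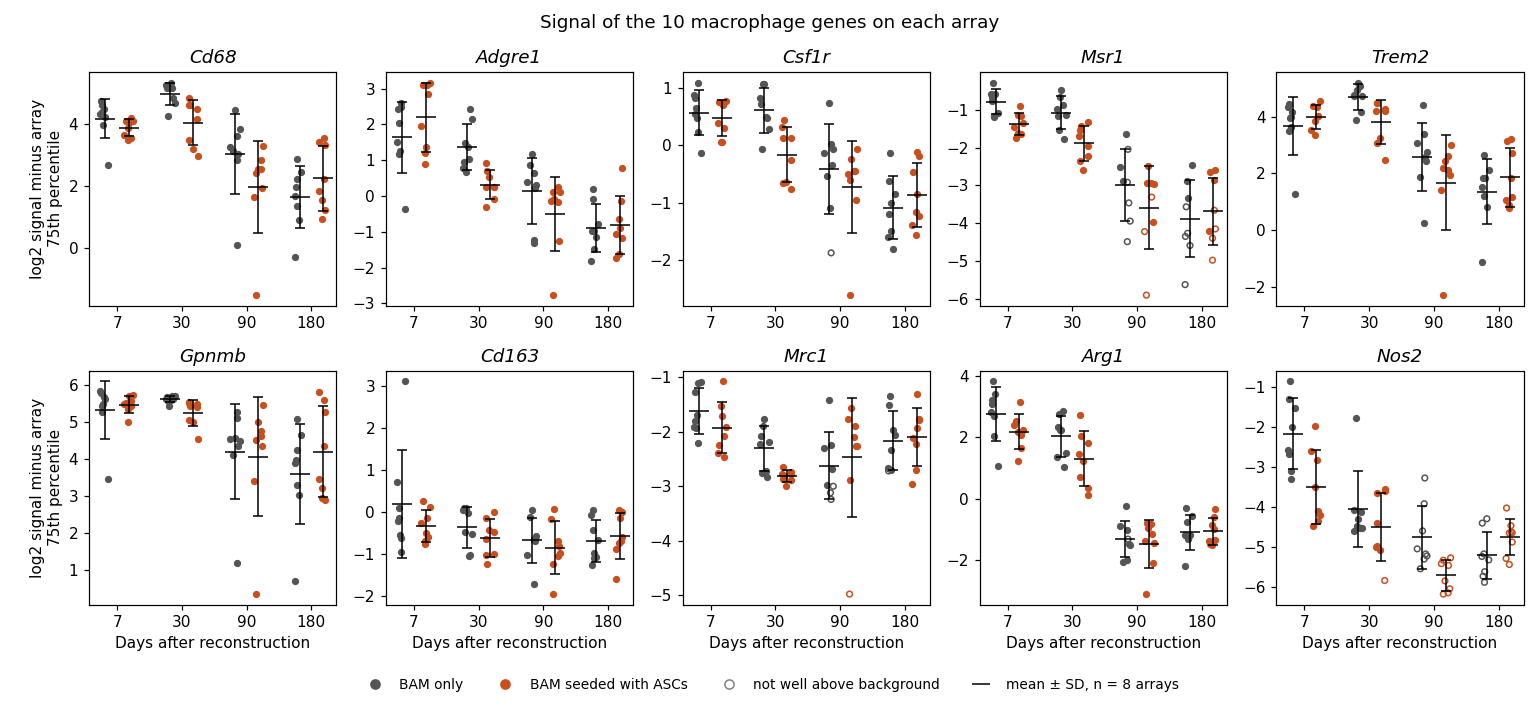
Signal of the 10 genes on each of the 64 arrays (y axis, log2 signal minus the array's 75th percentile, a separate scale for each gene; x axis, days after reconstruction). Points are arrays, open where the probe was not well above background, and bars give the mean ± SD of 8 arrays. Arg1 at days 90 and 180 lies below every array of days 7 and 30 in both grafts, while Cd163 and Mrc1 keep overlapping ranges across most days.

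Cd68, a lysosomal glycoprotein of macrophages, was at a lowest, median and highest level of 2.69, 4.34 and 4.72 in the unseeded graft at day 7. At day 30 these levels were 4.26, 5.14 and 5.30, and at day 90 they were 0.083, 3.19 and 4.43. At day 90 7 of the 8 unseeded arrays lay below all arrays of day 30, and the fall of 1.95 (SE 0.46, adjusted p = 0.000246) was called. With ASCs the levels were 2.96, 4.30 and 4.84 at day 30 and -1.52, 2.47 and 3.29 at day 90, a log2 fold change of -2.07 (SE 0.46, adjusted p = 0.000208). At day 180 the medians were 1.82 without ASCs and 2.02 with them, and the ranges of both groups overlapped. Leaving out replicate 5 of the unseeded graft at day 90, whose level was the lowest of its group, added 2 calls of Cd68: -1.48 for seeded against unseeded at day 90 (adjusted p = 0.00797) and -1.80 for day 180 against day 90 without ASCs (adjusted p = 0.00112). With that array both were not called (-1.06, adjusted p = 0.0660, and -1.38, adjusted p = 0.0236).

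Adgre1, the adhesion receptor known as F4/80, followed another course in the seeded graft. Its levels there were 0.886, 2.40 and 3.17 at day 7 and -0.316, 0.253 and 0.911 at day 30. At day 30 7 of the 8 arrays lay below all of day 7, and the log2 fold change was -1.89 (SE 0.41, adjusted p = 0.000469). It was the only 1 of the 10 genes called in that step, where 1.4% of all probes were called lower and 6.67% higher. Without ASCs the same step gave -0.28 (adjusted p = 0.728), with levels of -0.358, 1.78 and 2.60 at day 7 and 0.661, 1.21 and 2.43 at day 30. The difference between these steps was itself tested and not called (adjusted p = 0.0745). Adgre1 in the unseeded graft then fell from day 30 to day 90 by 1.23 (adjusted p = 0.00753), a call lost on leaving out any of 6 arrays and under 2 of 9 other settings.

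Csf1r, the receptor of the growth factors Csf1 and Il34 on which macrophages depend for survival, was measured by 2 probes that differed. By the brighter probe the unseeded levels were -0.06, 0.608 and 1.07 at day 30 and -1.88, -0.238 and 0.732 at day 90. That fall of 1.02 (adjusted p = 0.00115) was called, and the second probe gave -1.11 (adjusted p = 9.95e-06). In the seeded graft the brighter probe gave -0.57 (adjusted p = 0.0814) for the same step and the second probe -0.86 (adjusted p = 0.000674). The second probe was also lower with ASCs at day 7 (-0.74, adjusted p = 0.00961), where the brighter gave -0.10 (adjusted p = 0.847), and lower at day 180 than at day 90 without ASCs (-0.90, adjusted p = 0.000928).

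Msr1, the class A scavenger receptor, was well above background on all arrays of days 7 and 30. At days 90 and 180 it was so on 3 and 3 of 8 arrays without ASCs and on 5 and 4 with them. Its levels without ASCs were -1.77, -1.06 and -0.481 at day 30 and -4.49, -2.90 and -1.65 at day 90. Both grafts had 7 of 8 arrays at day 90 below all arrays of day 30. The log2 fold change was -1.91 (adjusted p = 1.16e-05) without ASCs and -1.71 (adjusted p = 0.000139) with them, the latter -0.93 after normexp background correction and still called.

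Trem2, a lipid-sensing receptor of macrophages in injured and fatty tissue, was at 3.87, 4.74 and 5.20 in the unseeded graft at day 30 and at 0.277, 2.67 and 4.40 at day 90. With ASCs it was at 2.46, 4.21 and 4.47 at day 30 and at -2.28, 2.16 and 3.00 at day 90. It fell in both grafts, with log2 fold changes of -2.09 (adjusted p = 0.000338) and -2.12 (adjusted p = 0.000505). The second call was lost in a fit of these 2 groups alone (adjusted p = 0.0113). Gpnmb, a glycoprotein of lysosome-rich macrophages, had median levels of 5.61 and 5.42 at day 30 and of 4.51 and 4.57 at day 90, without and with ASCs. All 8 unseeded arrays of day 90 lay below those of day 30, yet neither change was called (-1.41, adjusted p = 0.0120, and -1.19, adjusted p = 0.0435). Gpnmb was saturated on 7 of 8 unseeded and 5 of 8 seeded arrays at day 30, and on 5 of 8 unseeded and 0 of 8 seeded arrays at day 90. With ASCs the fall may therefore be larger than measured. Without ASCs both days held saturated values, so neither the fold change nor the separation of the arrays is bounded.

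**Figure D2:**
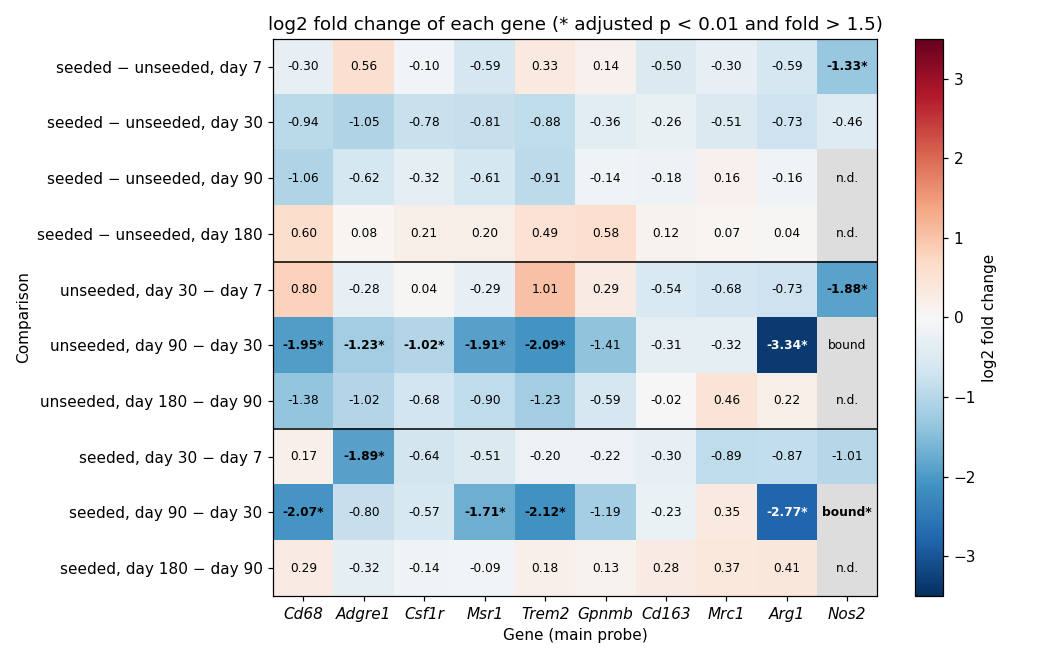
log2 fold change (colour and printed value) of each gene's main probe in the 10 comparisons: seeded minus unseeded graft on 4 days, and steps between days within each graft. A star marks an adjusted p below 0.01 with a fold above 1.5; grey cells hold no value, where Nos2 was not well above background in both groups (n.d.) or in 1 of them (bound). The stars gather in the rows for day 90 minus day 30.

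Arg1 fell in both grafts between day 30 and day 90. Arg1, the arginase that turns arginine into ornithine, was at a lowest, median and highest level of 1.06, 2.96 and 3.82 at day 7 in the unseeded graft and at 1.05, 2.23 and 2.86 at day 30. At day 90 it was at -2.06, -1.40 and -0.225, and at day 180 at -2.18, -1.18 and -0.309. All 8 arrays of day 90 lay below all of day 30, and the log2 fold change was -3.34 (SE 0.34, adjusted p = 2.17e-12), 10.2-fold. With ASCs the medians were 2.21, 1.34, -1.26 and -1.15 at days 7, 30, 90 and 180. The step from day 30 to day 90 was -2.77 (SE 0.34, adjusted p = 1.81e-09), 6.83-fold, again with no overlap. The difference of these steps between the grafts was not called, and from day 90 to day 180 no change was called (0.22, adjusted p = 0.649, without and 0.41, adjusted p = 0.428, with ASCs).

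Cd163, the receptor for haptoglobin-bound hemoglobin, and Mrc1 were called in none of the 10 comparisons. Cd163 medians went from -0.168 at day 7 to -0.814 at day 180 without ASCs and from -0.37 to -0.626 with them. Its step from day 30 to day 90 was -0.31 (adjusted p = 0.408) without and -0.23 (adjusted p = 0.572) with ASCs. Mrc1 medians were -1.75, -2.21, -2.84 and -2.20 without ASCs over the 4 days and -1.99, -2.79, -2.18 and -2.02 with them. Every seeded array of day 30, between -3.00 and -2.65, lay below every seeded array of day 7, between -2.46 and -1.08. That change of -0.89 did not pass the threshold (adjusted p = 0.0190) and did pass it after normexp background correction, after quantile normalization and in a fit of these 2 groups.

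Nos2, the inducible nitric oxide synthase, had its highest signals in the unseeded graft at day 7. Its levels there were -3.30, -2.30 and -0.87, against -4.48, -3.80 and -1.97 in the seeded graft. In the seeded graft 5 of 8 arrays lay below every unseeded array and the log2 fold change was -1.33 (SE 0.37, adjusted p = 0.00763), 2.52-fold lower. It was the 1 call among the 10 genes at day 7, where 5.62% of all probes were called lower and 2.11% higher. The call was lost on leaving out any of 9 of the 16 arrays (highest adjusted p = 0.0332) and under 4 of 9 other settings, with an adjusted p of up to 0.0572 (quantile normalization), and its direction was kept in all of these. Of the 21 M1-type genes measured 2 were called lower at day 7 as well, Il6 (-2.20) and Socs3 (-1.24), and none higher. Il6 was well above background on 2 of 8 seeded arrays. Of the 24 M2-type genes measured 1 was called higher with ASCs at day 7, Pparg (0.93, adjusted p = 0.00857), and 0 lower.

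In the unseeded graft Nos2 fell further by day 30, to levels of -4.60, -4.39 and -1.78. There 7 of 8 arrays lay below all of day 7, and the log2 fold change of -1.88 (SE 0.37, adjusted p = 0.000109) was the 1 call among the 10 genes, beside 4.21% of all probes lower and 4.44% higher. The exception was replicate 7 at -1.78, and the call held on leaving out each array in turn (highest adjusted p = 0.000602). With ASCs the step was -1.01 (adjusted p = 0.0369). From day 30 to day 90, where no array was well above background, Nos2 was at least 2.15-fold lower with ASCs. The bound itself was not tested. The limma fit of the signals as measured was called (adjusted p = 0.00620). That call was lost on leaving out any of 8 of the 16 arrays and under 2 of 8 other settings. After normexp background correction the log2 fold change with ASCs was -0.0033, so the bound does not hold there. Without ASCs the bound was 1.49-fold lower, and the limma fit of the signals as measured was not called (adjusted p = 0.0914). No fold of Nos2 is given between groups of days 90 and 180.

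Most neutrophil markers fell, as Nos2 did, from day 7 to day 30 without ASCs. In the unseeded graft 6 of the 7 measured (Mmp8, S100a8, Elane, S100a9, Csf3r and Cxcr2) fell from day 7 to day 30 and Ltf rose, with S100a8 going from a mean of 3.96 to -1.66. Among all probes 4.21% were called lower and 4.44% higher in that step. The mean log2 level over the 7 ranged from -2.43 to -0.106 at day 7 without ASCs, from -2.85 to -1.68 with them, and from -4.87 to -3.22 at day 30 without. Between the grafts at day 7 the list had a median of -1.43 and 1 call, Csf3r (-1.82, adjusted p = 0.000202). At day 30 it went the other way from Nos2, with a median of 0.89 and no call, while Nos2 gave -0.46 (adjusted p = 0.449). Of all probes 0.474% were called lower and 1.2% higher there. From day 7 to day 30 with ASCs 3 of the 7 (Mmp8, Csf3r and Cxcr2) were called lower and 0 higher, and Nos2 was not called. Of all probes 1.4% were called lower and 6.67% higher in that step. On none of the days 90 and 180 was any of the 7 well above background on all arrays of a group. Their part in the Nos2 values was not tested.

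Nos2 was compared with Arg1, Mrc1 and Cd163 through its log2 difference from each on the same array, in which any scaling of the array cancels. A change of this difference between groups shows that the pair changed unequally. Of 30 such comparisons (3 pairs, 10 contrasts) 1 passed after adjustment in exact permutation tests (two-sided, all splits of the 16 arrays of both groups). Nos2 minus Arg1 in the unseeded graft went from -7.39, -6.22 and -4.54 (lowest, median, highest) at day 30 to -4.38, -3.59 and -1.97 at day 90. All 8 arrays of day 90 lay above all of day 30, a difference of 2.63 (adjusted exact p = 0.00466), and with the replicate number as a block it did not pass (adjusted exact p = 0.117). Nos2 was not well above background on any array of day 90, so 2.63 is the background signal against Arg1 and only an upper limit for the pair. It is not read as a change of Nos2 relative to Arg1. In the seeded graft the same difference was 1.57 (adjusted exact p = 0.135).

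At day 7, where all 4 genes were well above background on all arrays, the ratios did not separate the grafts. Nos2 minus Mrc1 was at -2.28, -1.94 and -0.219 with ASCs and at -1.61, -0.78 and 1.06 without, with 6 of 8 seeded arrays below all unseeded arrays. The difference of -1.03 had an adjusted exact p of 0.157. Nos2 minus Arg1 differed by -0.75 (adjusted exact p = 0.311) and Nos2 minus Cd163 by -0.83 (adjusted exact p = 0.338). From day 7 to day 30 without ASCs the 3 differences were -1.15, -1.20 and -1.34 against Arg1, Mrc1 and Cd163, each with an adjusted exact p of 0.157. Without the outlying replicate 7 of day 30, the one against Mrc1 was -1.59 and passed (adjusted exact p = 0.014). At day 30 seeded minus unseeded differences lay between -0.20 and 0.27 (lowest adjusted exact p = 0.705).

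**Figure D3:**
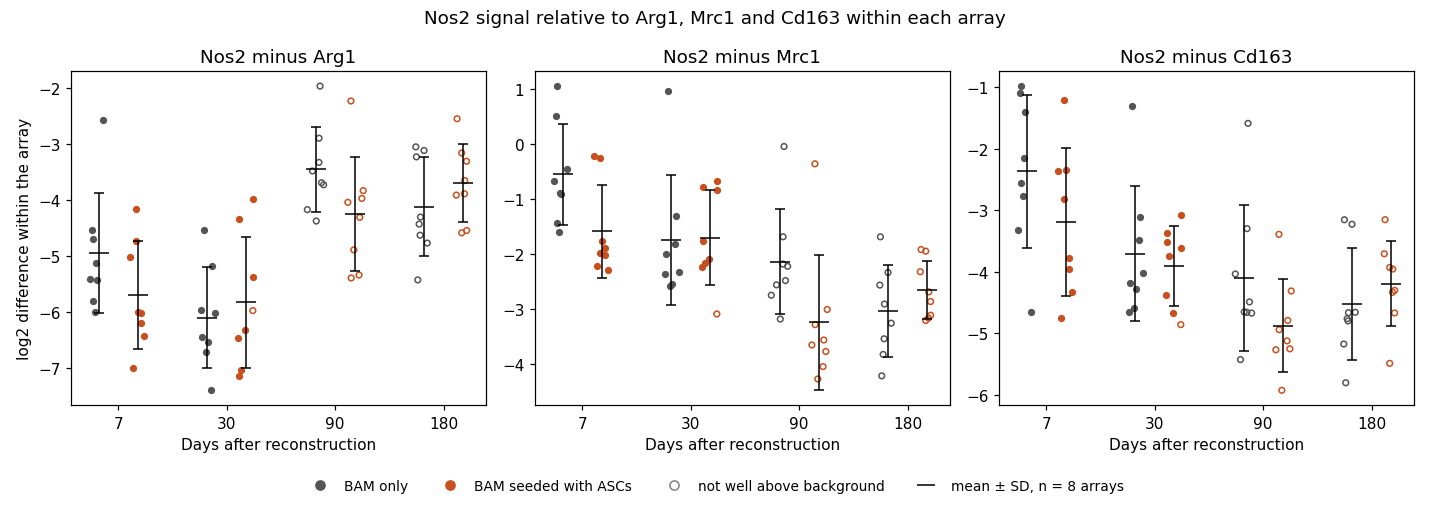
Difference of Nos2 from Arg1, Mrc1 and Cd163 within each array (y axis, log2) by days after reconstruction. Points are arrays, open where Nos2 or the other gene was not well above background, and bars give the mean ± SD of 8 arrays. Nos2 minus Arg1 at day 90 lies above day 30 without ASCs with no overlap, but every point of days 90 and 180 is open, since Nos2 was at background there.

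Seeding with ASCs went with few called changes in these genes. At day 30 all 10 were lower with ASCs, with a median log2 fold change of -0.75 against 0.11 for all probes, and 5 had an unadjusted p under 0.05, but none was called, where 0.474% of all probes were called lower and 1.2% higher. The values closest to a call were Csf1r (-0.78, adjusted p = 0.0669) and Adgre1 (-1.05, adjusted p = 0.0948). The second Csf1r probe had all 8 seeded arrays, from -1.15 to -0.17, below all 8 unseeded arrays, from -0.033 to 0.58 (-0.81, adjusted p = 0.0126). At day 90 none was called, and 9 of the 10 had values below 0 with a median of -0.47, where the median of all probes was -0.27. Relative to that median Cd163, Mrc1, Arg1 and Gpnmb were higher. Of the 2 genes at an unadjusted p under 0.05, Cd68 and Nos2, Nos2 was not well above background in either graft, beside 8.6% of all probes called lower and 3.88% higher. At day 180 none was lower, none called and none at an unadjusted p under 0.05, where 2.4% of all probes were called higher and 0.0428% lower. The change of the graft effect between days was called for none of the 10 genes in the 6 pairs of days by limma, with 0 to 2 genes at an unadjusted p under 0.05. Of all probes 0.985%, 5.83% and 8.48% were called for days 30, 90 and 180 against day 7, 9.99% and 2.51% for days 90 and 180 against day 30, and 9.79% for day 180 against day 90. The lowest adjusted p was 0.0123, for Nos2 between days 7 and 180, and at day 180 Nos2 was not well above background in either graft. Within a graft, no gene was called from day 90 to day 180, with 5 genes without ASCs at an unadjusted p under 0.05 and with ASCs 1, Nos2, which was not well above background on either day. Of all probes 4.17% were called lower and 5.21% higher in that step without ASCs, and 0.616% lower and 3.52% higher with them.

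The other macrophage and monocyte genes moved with the 10. Of the 25 measured, 21 were called lower from day 30 to day 90 without ASCs and 2 higher (Marco and Vsig4, neither well above background on any array of day 90), with a median of -1.50. With ASCs 14 were called lower and 2 higher (Cx3cr1, and Vsig4 at background), with a median of -0.89. Among all probes 9.49% were called lower and 35.2% higher without ASCs, and 10.3% and 17.8% with them. Ptprc, the common leukocyte antigen CD45, fell in both grafts (-2.24 without and -1.92 with ASCs), as did Itgam, the integrin CD11b (-2.52 and -2.14), and the Fc receptor gene Fcgr2b gave -2.12 without ASCs. At day 30 Fcgr2b was the 1 gene of this list called with ASCs (-0.97, adjusted p = 0.00521). At day 90 Lyz2, lysozyme, was called higher with ASCs (0.81, adjusted p = 0.00762), and Cx3cr1, the fractalkine receptor, at day 180 (1.18, adjusted p = 4.49e-05). Means of Lyz2 at day 90 were 5.52 with and 4.70 without ASCs. The part of saturation on the unseeded arrays of day 90 in the Lyz2 values was not tested.

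Genes of the lipid, lysosome and foreign-body list fell in the same step. Without ASCs 17 of 24 were called lower and none higher, and with ASCs 11 lower and 1 higher, Abca1. Over all probes 9.49% were called lower and 35.2% higher without ASCs, and 10.3% and 17.8% with them. The elastase Mmp12 changed by -3.72 (adjusted p = 0.000776) and -3.03 (adjusted p = 0.00814), and the matrix protein Spp1 by -3.58 and -3.48. Before that, from day 7 to day 30 without ASCs, 6 of the 24 rose and 1 fell, where 4.44% of all probes were called higher and 4.21% lower. Those named by size were the proton pump subunit Atp6v0d2 (2.77), the collagen-degrading protease Ctsk (1.30) and Cd9 (1.26). With ASCs none rose in that step and 1 fell, Mmp14, where 6.67% of all probes were called higher and 1.4% lower. The difference between grafts was not tested for this list. At day 90 5 of the 24 were called higher with ASCs, Lgals3 (1.05), Ctsb (0.94), Apoe (0.76), Abca1 (0.73) and Fabp5 (1.28), and Tfec lower (-1.13), where 3.88% of all probes were called higher and 8.6% lower. In the same comparison 3 of 10 housekeeping genes, Rplp0 (1.15), Actb (1.04) and Ppia (1.02), were called higher with ASCs. Unseeded means of Lgals3, Ctsb and Fabp5 were 4.77, 4.74 and 4.45, and those of Rplp0, Actb and Ppia 4.89, 4.81 and 5.02. The part of the housekeeping genes, or of saturation on the unseeded arrays of day 90, in the values of the list was not tested.

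Of the 21 M1-type genes measured 8 were called lower from day 30 to day 90 without ASCs and 5 with them, and none higher. Tnf gave -2.64 without and -2.68 with ASCs, and Il1b -2.39 and -2.91. Without ASCs 5 of the 21 fell already from day 7 to day 30, Il1b with a log2 fold change of -2.23, while Cd86 rose. From day 7 to day 30 without ASCs 4.21% of all probes were called lower and 4.44% higher. In that step 4 of the 24 M2-type genes were called higher (Klf4, Irf4, F13a1 and Pparg) and 3 lower (Alox15, Il4r and Il13ra1). Of the 24 M2-type genes 7 were called lower and 5 higher from day 30 to day 90 without ASCs, and 3 lower and 3 higher with them. The 5 higher without ASCs (Retnla, Retnlb, Pdcd1lg2, Cd209a and Chia) were well above background on at most 1 of 8 arrays at day 90, and 9.49% and 10.3% of all probes were called lower in these steps and 35.2% and 17.8% higher. The interleukin-1 receptor antagonist Il1rn fell in both grafts (-2.93 and -2.21), as did the lectin Clec10a, while Stat6, the transcription factor downstream of IL-4, was called higher with ASCs at day 90 (0.61, adjusted p = 0.000694). Il10 was called lower at day 90 without ASCs (-1.20, adjusted p = 0.00840), where it was well above background on 1 of 8 arrays.

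**Figure D4:**
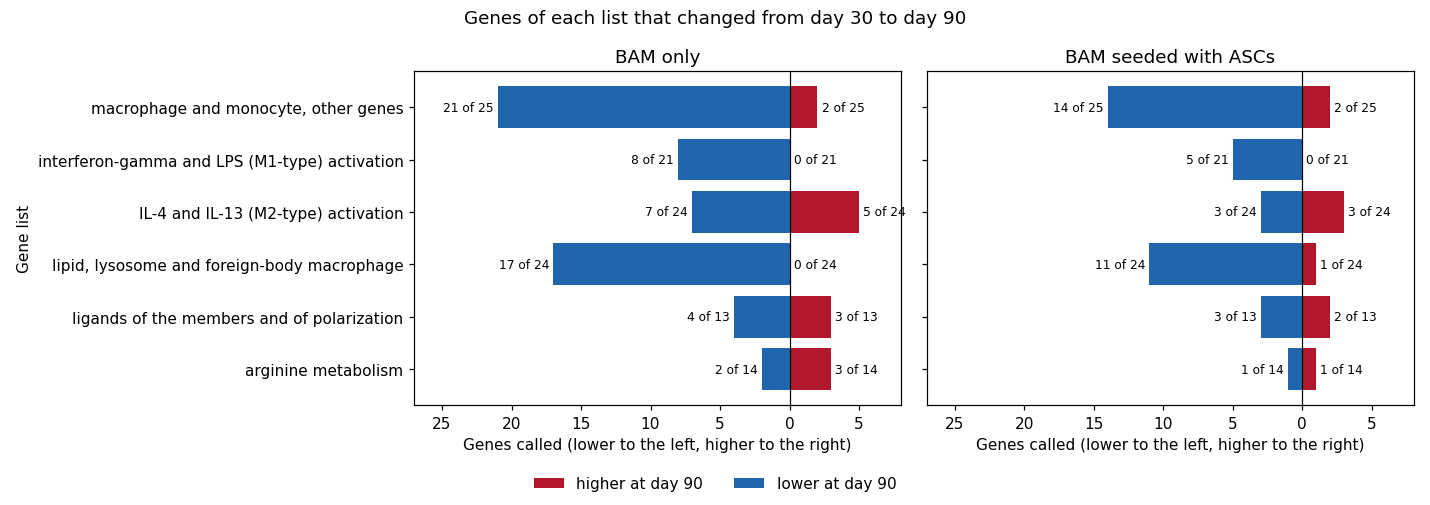
Number of genes called lower (to the left) and higher (to the right) at day 90 than at day 30 in 6 lists, without ASCs (left panel) and with ASCs (right panel); the x axis counts genes, and each bar carries its number of the genes measured. The longest bars are those of the other macrophage genes, with 21 and 14 of 25 lower, and of the lipid, lysosome and foreign-body genes, with 17 and 11 of 24 lower; higher calls include genes not well above background at day 90.

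Among the ligands, Csf1, the growth factor read by Csf1r, rose from day 7 to day 30 without ASCs by 1.36 (adjusted p = 6.09e-05) and fell by day 90 (-1.46). With ASCs it gave 0.19 and -0.42 for these steps, neither called, and at day 30 it was lower with ASCs by 1.20 (adjusted p = 0.00237). Il34, the other ligand of that receptor, rose from day 90 to day 180 in both grafts (0.73 and 0.66). Il13 was lower with ASCs at day 7 (-1.13, adjusted p = 0.00976). Ifng and Il4 were called higher at day 90 without ASCs, but were not well above background on any array there, so no level is read. In arginine metabolism Slc7a2, an arginine transporter, was lower with ASCs at day 30 (-1.41, adjusted p = 0.00354). It fell without ASCs by day 90 (-2.52), where it was well above background on 1 of 8 arrays. Gch1, which makes the cofactor of nitric oxide synthases, fell in both grafts from day 30 to day 90 (-2.49 and -2.36). At day 90 Gch1 was well above background on 4 of 8 arrays without ASCs and 6 of 8 with them. Arg2, the mitochondrial arginase, was higher with ASCs at day 30 without a call (1.32, adjusted p = 0.0270).

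Markers of other cell types were counted in the same step, where 35.2% of all probes were called higher and 9.49% lower without ASCs and 17.8% and 10.3% with them. Of 7 smooth muscle genes 5 were called higher from day 30 to day 90 without ASCs and 6 with them, and none lower. Of 8 T cell genes 3 and 2 were called lower, and of 6 mast cell genes 1 and 1. Of 7 fibroblast genes 4 and 1 were lower and 0 and 1 higher, of 6 endothelial genes 2 and 1 higher, and of 3 B cell genes none. The fibroblast genes called lower without ASCs include Col1a2, Col3a1 and Col1a1, with unseeded means of 4.87, 4.78 and 4.77 at day 90. The part of saturation on the unseeded arrays of day 90 in the fibroblast values was not tested. Neutrophil genes, near background by day 90, were called higher for 2 and lower for 0 without ASCs, and higher for 1 and lower for 3 with them; 1 adipocyte gene of 4 was higher without ASCs, and 1 of 8 urothelial genes was higher with ASCs. At day 7 6 of the 8 urothelial genes were higher with ASCs, with a median of 2.17, where 2.11% of all probes were called higher. The part of these shifts in the macrophage values was not tested.

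Arrays of the same group differed in the macrophage genes together. Over the 64 arrays the deviations of Cd68 from its group means correlated with those of Trem2 at r = 0.943, of Gpnmb at 0.924, of Csf1r at 0.827 and of Msr1 at 0.817. Without 4 arrays, chosen after their values were seen as the ones far below their group in Cd68, Trem2 or Gpnmb, these were 0.889, 0.810, 0.807 and 0.718. Mrc1 correlated less with Cd68 (0.554, and 0.357 without the 4 arrays), Cd163 with Mrc1 at 0.462 and with Cd68 at -0.0318, and Arg1 with Cd68 at 0.594. Nos2 was well above background on 31 of the 64 arrays, each from day 7 or day 30, and is given over the 32 arrays of those days, a choice made after its values were seen. There its correlations with the other 9 lay between -0.486 (Trem2) and 0.241 (Arg1). All points share the array and its scaling, and these are descriptions.

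**Figure D5:**
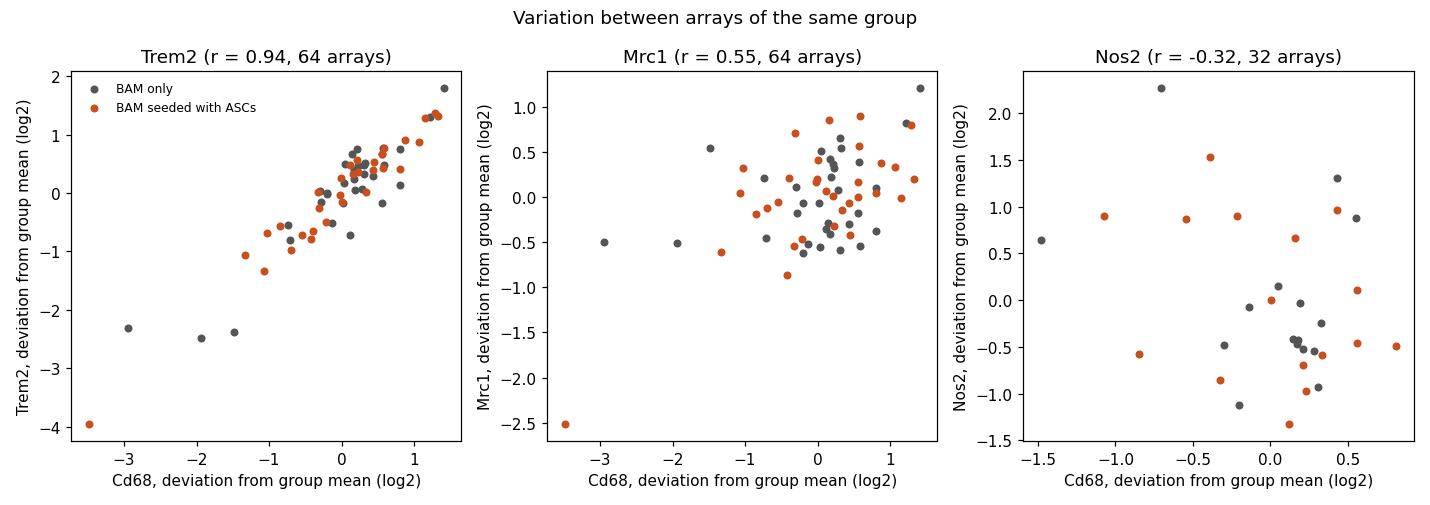
Deviation of each array from its group mean (log2), with Cd68 on the x axis and Trem2, Mrc1 or Nos2 on the y axis, Nos2 over the 32 arrays of days 7 and 30 alone; colours mark the graft. The points of Trem2 lie close to a line (r = 0.94), those of Mrc1 less so (r = 0.55), and those of Nos2 are scattered (r = -0.32).

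Among 8341 genes well above background on at least 56 arrays, those most like Cd68 by this measure were Cybb (r = 0.952), the phagocyte oxidase subunit, Lilrb4 (0.944) and Trem2. For Cd163 they were Osr1 (0.682), Lyve1 (0.681) and Serpina3n (0.657), and for Mrc1 C1s (0.749), Cerk (0.740) and Spon1 (0.739). For Arg1 they included Aldh3b1 (0.707) and Slc15a3 (0.702). For Nos2, over the 32 arrays of days 7 and 30, they were Arrdc3 (0.862), C11h21orf91 (0.856) and Mxd1 (0.843).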

How the data were processed

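The authors hybridised Cy3-labelled RNA of each rat to a one-colour Agilent rat array (probe build rn4) and deposited the scanner output of Agilent Feature Extraction (12.0.1.1), from which the processed signal, a background-subtracted intensity, was used. RNA was taken from the reconstructed wall. The authors also deposited a series table of processed intensities, whose log2 was used here as an alternative. On most arrays its median log2 difference from the scanner output was 0.0. It was -3.29, -3.30 and -3.30 on replicates 2, 3 and 4 of the seeded graft at day 7. For replicate 1 of the unseeded graft at day 180 the table left 26650 spots empty.

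Control and outlier-flagged spots were left out, spots of a probe averaged, and log2 signals set relative to each array's 75th percentile. Probes were named through RefSeq accessions (assembly GRCr8 tables): of 30367 gene probes 22372 had one and 18750 received 1 symbol. For a gene with several probes, the one with the highest mean signal over the 64 arrays stood for the gene. limma 3.58.1 (R 4.3.3) estimated the 8 group means from all 64 arrays and 10 contrasts and 6 contrasts of contrasts between them. Where a probe was not well above background on any array of a group, a fold is a lower bound: the mean of the brighter group against a floor set on each array by the lowest signal well above background. The methods' two-way analysis was run as an alternative without moderated variances. The test was tried on simulated data.

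The 10 genes and the gene lists were chosen with earlier results of these data known. Named were all 10 genes; from each list up to 3 called genes a contrast, by size, among those well above background on all arrays of the brighter group; a fixed set of ligands and markers; the 3 genes closest to Cd68, Cd163, Mrc1, Arg1 and Nos2, of which 1 is not reported here; and the members of counts. Replicate numbers were not treated as pairs in the main fit, and the arrays do not settle whether they are. Same-numbered arrays of 2 groups correlated over 0.1 in their deviations in at most 4 of 8 pairs. The highest such r was 0.618, between days 90 and 180 without ASCs. Rats, 1 per array, are the replicates, and their number limits the precision.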

Additional observations from a re-analysis of the deposited data

Results flagged for a closer look

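Of 88 sets of 8 arrays (11 probes in 8 groups), 14 held 1 array far from the other 7, where chance flags about 1 in 20. Replicate 2 of the unseeded graft at day 7 was lowest in Cd68 (2.69, group median 4.34), Trem2 (1.29, median 3.97) and Gpnmb (3.46, median 5.55) and highest in Cd163 (3.12, median -0.168). Replicate 3 of the seeded graft at day 90 was lowest in Cd68 (-1.52), Mrc1 (-4.98), Trem2 (-2.28), Gpnmb (0.362) and both Csf1r probes (-2.61 and -2.73). Replicate 5 of the unseeded graft at day 90 was lowest in Cd68 (0.083) and Gpnmb (1.19), and replicate 3 of the unseeded graft at day 180 in Gpnmb (0.706). Replicate 7 of the unseeded graft at day 30 was highest in Nos2 (-1.78, median -4.39).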

How the results depend on the processing

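The fall of Arg1, Cd68 and Msr1 from day 30 to day 90 was called in both grafts under all 9 alternatives fitted and on leaving out each array. At day 7 the number of the 10 genes called was 0 after quantile normalization, with the percentile over detected probes, with the series table and in a fit of the 2 groups, and 2 where any probe counted; without 1 array it ranged from 0 to 1. It also ranged from 0 to 1 for seeded against unseeded at day 90 and for day 180 against day 90 without ASCs, the 1 arising without replicate 5 of the unseeded graft at day 90, and the latter was 1 where any probe counted. For day 30 against day 7 normexp gave 2 without ASCs and 2 with them, and with ASCs quantile normalization and a fit of the 2 groups gave 2. A fit of the 2 groups gave 1 for day 180 against day 90 with ASCs. For the graft effect at day 180 against day 7, normexp gave 1 (Nos2, not well above background at day 180). Nos2 from day 30 to day 90 with ASCs was -0.0033 after normexp.

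With the replicate number as a block, the count for the graft effect between days 7 and 180 was 1, and Nos2 minus Arg1 at day 90 against day 30 without ASCs, still 2.63, had an adjusted exact p of 0.117; the block moved no other count by over 1.5 times and changed no other ratio call. Same-numbered arrays correlated best with each other in 0 to 3 of 8 pairs, a hint from the data only.

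Ratio changes that turned sign under normexp were Nos2 minus Arg1 at day 90 (0.022) and for day 30 against day 7 with ASCs (0.237), Nos2 minus Mrc1 for that step (0.061), and Nos2 minus Cd163 at day 90 (0.152), for day 180 against day 90 without ASCs (0.050) and day 90 against day 30 with ASCs (0.189). Quantile normalization gave -0.057 for Nos2 minus Arg1 at day 30, and normexp 2.49 for day 90 against day 30 with ASCs (adjusted exact p = 0.00233). Without 1 array, Nos2 minus Arg1 ranged from -0.398 to 0.0853 for day 30 against day 7 with ASCs, 1.28 to 1.84 for day 90 against day 30 with ASCs and -1.08 to -0.582 at day 90. Nos2 minus Mrc1 ranged from -0.269 to 0.0781 for day 30 against day 7 with ASCs, -0.103 to 0.435 at day 30, -1.59 to -0.972 for day 30 against day 7 without ASCs, -1.52 to -0.81 at day 90, -1.96 to -1.40 for day 90 against day 30 with ASCs and 0.446 to 1.01 for day 180 against day 90 with ASCs. Nos2 minus Cd163 ranged from -0.335 to 0.142 at day 30 and -1.18 to -0.819 for day 90 against day 30 with ASCs. Of the ratios not past an adjusted p of 0.05 with all arrays, 5 passed without replicate 3 of the seeded graft at day 90, 4 of them against Mrc1 or Cd163, all with Nos2 not well above background at day 90. In each ratio that involves day 90 or day 180, Nos2 was not well above background on any array of that day. Such values set background signal against the other gene and are not read as changes of Nos2. The causes of the shifts between settings were not tested. Slide as a block was not run, since each slide held 1 group.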
